A study of Bos taurus with 12 samples.

Results

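The tiles described here lie in DNA far from any annotated feature in cattle. They are the autosomal tiles that the authors' deposited table classes as distal intergenic and places more than 50000 bp from the closest gene feature or CpG island. Tiles in 5 windows were left out by the same rule, on chromosome 1 below 0.7 Mb, chromosome 6 from 5 to 6 Mb, chromosome 14 from 13 to 14 Mb, chromosome 18 from 57 to 57.5 Mb and chromosome 21 from 32.5 to 33.5 Mb. This left 682 of the 7290 tiles in the table. The table compares sperm DNA of Bos taurus bulls in 2 groups, with 6 samples labelled low BFI and 6 labelled high BFI, an abbreviation that the labels leave unexplained. Methylation was read by enzymatic methylation sequencing, in which enzymes protect methylated cytosines and convert the others, so that unmethylated cytosines are read as T. No treatment, strain or age is given, and the labels do not state that the samples are from separate bulls. The cell type could not be checked here, because levels per sample were not used.

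A tile is a window of 500 bp, and the tiles start on a grid of 100 bp, so neighbours overlap and hold many of the same cytosines. Each tile carries a methylation difference between the groups, read as percentage points (pp), with a p-value and a q-value. A q-value is meant to allow for the many tiles. In 414 of the tiles described here q lay below p, so a q under 0.05 does not imply a p under 0.05. The chromosome 20 tile from 63351501 to 63352000 had a p of 0.398 and a q of 0.0445 in the authors' comparison. A p of 0.0411 went with a q of 0.00534 at 63349901 on chromosome 20. At 29201 on chromosome 10, a p of 0.0415 went with a q of 0.0421. A q under 0.05 was therefore not the same cut on p on every chromosome. The table does not say which group was subtracted from which, so a negative or positive sign is given as deposited and no group is called the more methylated. The table gives no error between bulls and the depth behind a tile is unknown. All positions are those of the authors' deposited table, whose build the submitters' processing notes name as ARS-UCD1.2.

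Most cytosines of CpG pairs in mammalian sperm are methylated outside CpG islands, the CpG-rich stretches that often mark gene starts. DNA far from genes holds repeats, which methylation helps to keep silent, and distal regulatory elements, at which methylation is often reduced while they are active. Cattle autosomes are acrocentric, with the centromere near an end, and blocks of satellite repeats flank it. In bovine sperm these satellites are known to be less methylated than in somatic tissue.

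At far intergenic tiles the differences between the groups were mostly small and negative, and large ones were found at 6 isolated places. A tile was counted where its deposited q was under 0.05 and its difference 10 pp or more, whatever the sign. Counted tiles numbered 18 of 682 (2.64%), against a background of 2.78% over all listed tiles and 0.915% over the 4810 autosomal tiles outside the 5 windows. All 18 counted tiles were negative. So were 192 of the 203 counted over all listed tiles and 43 of the 44 over the autosomal tiles outside the windows. As a share of all tiles, counted negative tiles made up 2.64% here, against 2.63% and 0.894% in these backgrounds. Counted positive tiles numbered 0 of 682, against 0.151% and 0.0208%. The 18 tiles lay nearest to MGAT4C, to CXXC4 and, at the other 4 places, to a CpG island or to exons given with a transcript ID only. Over the 682 tiles the median size of the difference was 2.18 pp, against 1.48 over all listed tiles. Negative differences made up 528 of the 682 (77.4%), against 71.6% of all listed tiles. At any size, 533 tiles had a q under 0.05 (78.2%), against a background of 71.8% over all listed tiles and 67.4% over the autosomal tiles outside the windows. Of these 533 tiles, 432 were negative and 101 positive. With Benjamini-Hochberg adjustment of the deposited p over all listed tiles, 475 of them stayed under 0.05. Over all listed tiles, 4556 of 7290 were under 0.05 by that adjustment. Among the 682 tiles, the smallest difference with a deposited q under 0.05 was 0.290 pp. Distal intergenic tiles up to 50000 bp from a feature, outside the windows, had values close to these. Of those 789 tiles, 79.6% were negative and 75.03% had a q under 0.05, and the median size was 2.003 pp. Their share of counted tiles was lower, at 0.76%.

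Because neighbours overlap, tiles with at most 1000 bp between them were joined into loci. The 682 tiles formed 87 loci on 25 chromosomes and covered 115900 bp. The median locus held 4 tiles and measured 800 bp, and 11 loci were single tiles. All tiles were negative in 59 loci, all were positive in 12, and 16 held both signs. In 16 loci no tile had a q under 0.05, and in 45 loci every tile did. In 3 loci all tiles carried the same deposited value. Pairs of tiles that share bases had the same sign in 89.6% of 1704 cases and differed by a median of 0.623 pp. Pairs in a locus that share no base and lie within 1000 bp had the same sign in 77.1% of 2425 cases and differed by a median of 1.32 pp.

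**Figure D1:**
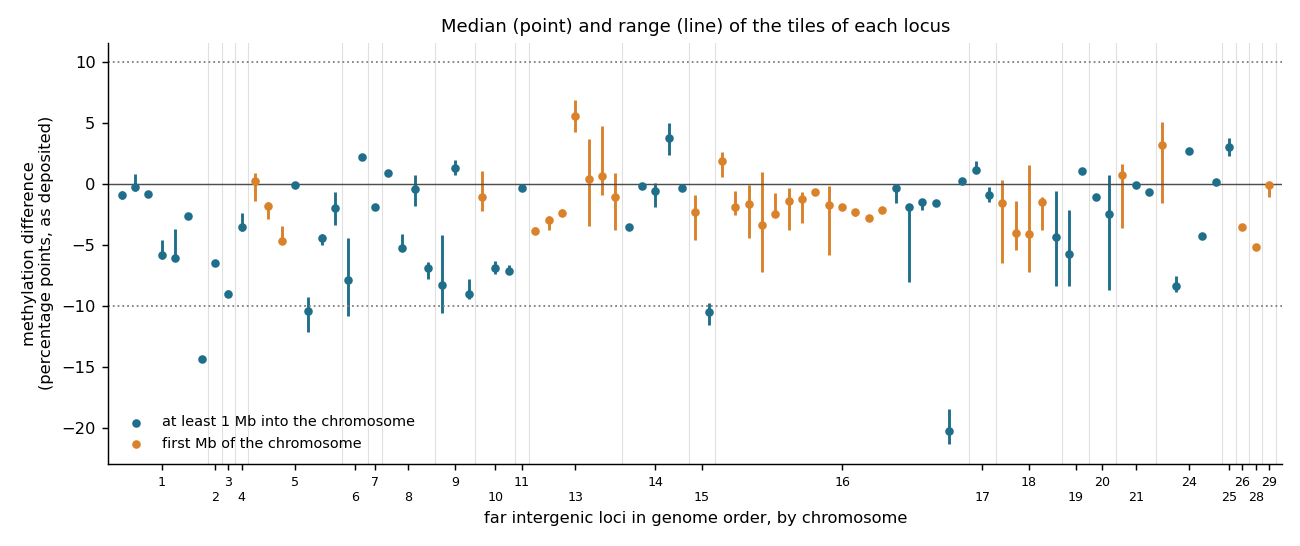
Each of the 87 far intergenic loci in genome order, with the median (point) and range (line) of the methylation differences of its tiles in pp, coloured by whether the locus lies in the first Mb of its chromosome. The dotted lines mark 10 pp in either direction, which 6 loci pass below and none passes above.

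The largest difference of the whole table belonged to a far intergenic locus on chromosome 16. Its 4 tiles, from 11333201 to 11334000, stood at -20.5, -21.3, -20.1 and -18.5 pp in the authors' deposited table. All 4 were counted, and the largest of them, from 11333301 to 11333800, had a q of 3.39e-69. The 4 tiles share the 200 bp from 11333501 to 11333700 and are not independent measurements. It was also the counted locus farthest from annotation, with 589785 bp between that tile and the closest exon, which lies from 11923585 to 11923641. No gene is named for that exon in the authors' deposited table.

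On chromosome 1 a locus of 3 tiles, from 61956201 to 61956900, had almost the same value throughout. Its tiles were listed at -14.3, -14.4 and -14.3 pp in the authors' deposited table, and the smallest q was 3.15e-31. The closest feature was an exon from 61725406 to 61725556, at a gap of 230645 to 230845 bp.

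MGAT4C, of the family of glycosyltransferases that add N-acetylglucosamine branches to N-glycans, was the nearest gene of 5 tiles on chromosome 5. They stood, in the authors' deposited table, at -9.23, -10.1, -12.1, -11.3 and -10.4 pp from 15823901 to 15824800. The difference was deepest in the middle tile, and 4 of the 5 tiles were counted. The middle tile, from 15824101 to 15824600, had a q of 1.19e-22 and lay 80933 bp upstream of the 5′ UTR of MGAT4C. In RefSeq gene order on assembly ARS-UCD2.0, used for names and order only, the neighbouring protein-coding genes of MGAT4C are NTS, which encodes the peptide neurotensin, and C5H12orf50, and the tiles lie on the C5H12orf50 side.

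CXXC4 encodes a zinc finger protein that binds unmethylated CpG and inhibits Wnt signalling through Dishevelled. Its 4 tiles on chromosome 6, from 20762601 to 20763400, were listed at -10.8, -8.48, -7.22 and -4.41 pp in the authors' deposited table. Each step of 100 bp away from the gene brought a smaller difference, and the first tile alone was counted, with a q of 2.65e-28. The 4 tiles share the 200 bp from 20762901 to 20763100 and are not independent measurements. That tile lay 57808 bp beyond the nearest coding sequence, on the downstream side by the deposited strand. CXXC4 stands in RefSeq order between TET2, which oxidises 5-methylcytosine, and TACR3, the receptor of neurokinin B, and the tiles lie on the TACR3 side.

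A locus on chromosome 15, from 64080301 to 64081200, had a CpG island as its closest feature. The authors' deposited table lists its 5 tiles at -11.6, -10.1, -9.75, -10.5 and -10.6 pp, 4 of which were counted. The first tile had the smallest q, 1.37e-52, and its gap to the island was 90385 bp.

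The locus on chromosome 9 was longer, with 15 tiles from 19454801 to 19457700. Its first 2 tiles were counted, at -10.5 and -10.6 pp in the authors' deposited table. They were followed, after a stretch of 600 bp with no listed tile, by 13 tiles between -8.97 and -4.22 pp. The smallest q of all far intergenic tiles, 2.24e-145, belonged to one of these, from 19456401 to 19456900, at -8.43 pp in the authors' deposited table. The closest feature was an exon from 19524417 to 19524522.

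How far a q can fall depends on the precision behind a tile as well as on the size of its difference. Dividing a deposited difference by the normal deviate of its deposited p, taken as two-sided, gives the error that the authors' test implies. It is not known here whether that test allowed for bulls differing from each other, so this error is not the spread between bulls. For the tile with the largest difference of each counted locus it was 1.39 pp on chromosome 1, 1.21 near MGAT4C, 0.986 near CXXC4, 0.771 on chromosome 9 and 0.747 on chromosome 15, and for the largest tile on chromosome 16 it lay between those of CXXC4 and chromosome 1. For the chromosome 9 tile with the smallest q it was 0.325. The median over the 682 tiles was 0.693 pp, against 0.358 over all other autosomal tiles outside the windows. Among those, the nearer intergenic tiles had a median of 0.569 pp.

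**Figure D2:**
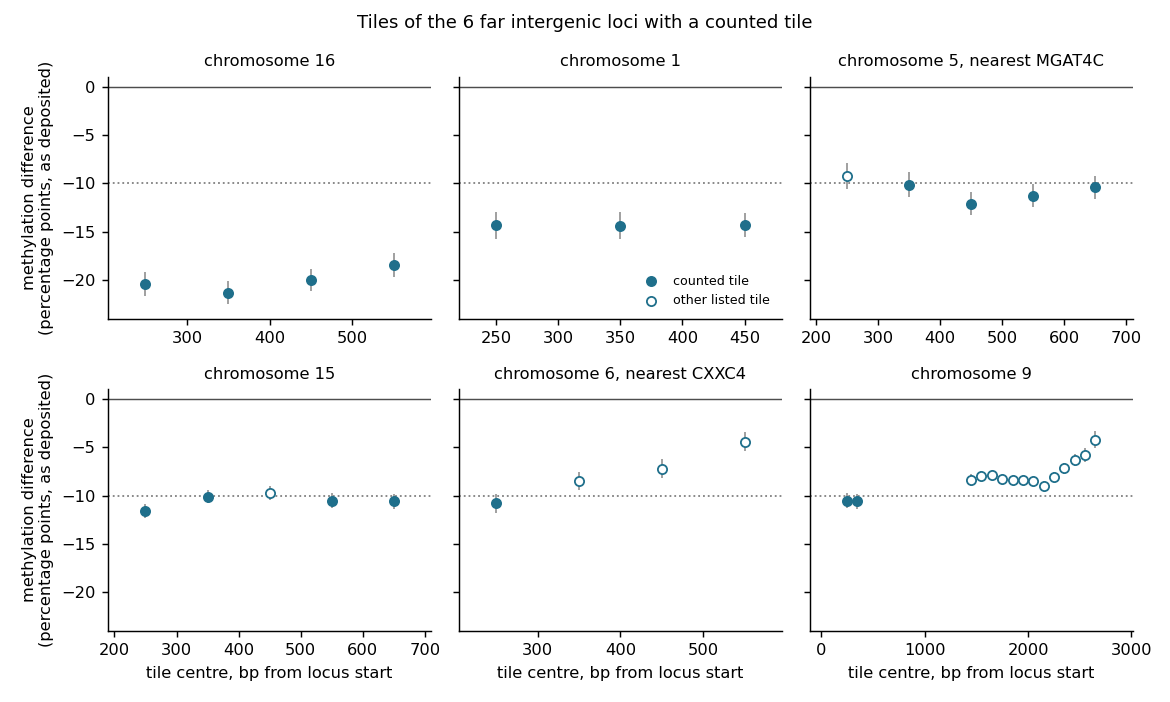
Methylation difference in pp of every listed tile in the 6 far intergenic loci with a counted tile, against the tile's centre in bp from the start of the locus. Filled points are counted tiles, open points are other listed tiles, bars are the error implied by the deposited p, and the dotted line marks -10 pp. All 36 tiles are negative, and the difference near CXXC4 shrinks from tile to tile across 4 overlapping tiles.

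Below the limit of 10 pp lay a broader group of loci. With the minimum lowered to 5 pp and the same q, 118 tiles passed (17.3%), against a background of 15.4% over all listed tiles and 9.65% over the autosomal tiles outside the windows. Of the 118 tiles, 111 were negative and 7 positive. Such tiles were negative in 1042 of 1124 cases over all listed tiles and in 407 of 464 over the autosomal ones. As shares of all tiles, negative ones made up 14.3% and 8.46% of these backgrounds, against 111 of 682 here. Positive ones made up 1.12% and 1.19%, against 7 of 682. The 118 tiles came from 30 of the 87 loci (34.5%), 27 with negative and 3 with positive tiles of that size. Over all listed tiles, 193 of 1193 loci (16.2%) held such a tile, and over the autosomal ones 108 of 1011 (10.7%). Next in size to the 6 counted loci was a locus on chromosome 9, from 46392701 to 46393400, whose 3 tiles reached -9.43 pp in the authors' deposited table. It was followed by 4 tiles on chromosome 3, from 72084201 to 72085000, which reached -9.25 pp there.

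SERPINB8, an intracellular inhibitor of serine proteases, was the nearest named gene of 6 tiles on chromosome 24 from 11960801 to 11961800. All 6 lay between -8.82 and -7.55 pp in the authors' deposited table, with a smallest q of 8.74e-57. The gap to the gene was at least 431316 bp, on the downstream side by the deposited strand. In RefSeq order the protein-coding neighbour of SERPINB8 on that side is CDH7, a cadherin, which is a cell adhesion protein.

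TAS2R1, a bitter taste receptor gene of a multicopy family and therefore uncertain, was the nearest gene of 40 tiles in a locus of chromosome 20 from 63347601 to 63353000. They ran, in the authors' deposited table, from -8.67 to 0.708 pp around a median of -2.49. Of these tiles, 36 were negative and 9 passed 5 pp at a q under 0.05. The gap between the tiles and the coding sequence was at least 204628 bp.

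COL8A1, which encodes a short-chain collagen of vascular and corneal basement membranes, was the nearest gene of 4 tiles on chromosome 1. They ran from -6.11 to -4.61 pp in the authors' deposited table, and the largest, from 43628301 to 43628800, had a q of 3.35e-14 and lay 273464 bp upstream of the 5′ UTR.

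Other loci of this middle size, named here after their values were seen, had no named gene nearest to them. The smallest q-values outside the chromosome 9 locus belonged to chromosomes 8 and 1. On chromosome 8 a tile from 34781801 to 34782300 stood at -5.28 pp with a q of 5.99e-112 in the authors' deposited table, just beyond the limit of 50000 bp from a CpG island. On chromosome 1 the 9 tiles from 46388601 to 46389900 ran from -6.26 to -3.71 pp in the authors' deposited table, and 8 of them passed 5 pp. A longer locus on chromosome 18, from 50729801 to 50733100, held 24 tiles, all negative, between -8.33 and -0.557 pp in the authors' deposited table. Compact loci in which every tile passed 5 pp lay on chromosome 8 from 64714901 to 64715800, on chromosome 10 from 31340801 to 31341700 and from 71222201 to 71223000, and on chromosome 2 from 77522401 to 77523000. Their largest values were -7.79, -7.33, -7.39 and -6.44 pp in the authors' deposited table. Such compactness was common, since in 38 of the 45 loci of several tiles outside the first Mb of a chromosome all tiles shared a stretch of DNA.

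Positive differences were fewer and smaller. The largest belonged to the first of 6 tiles on chromosome 13 from 324801 to 325800, which ran from 4.26 to 6.91 pp in the authors' deposited table. The tile at 6.91, from 324801 to 325300, had a q of 1.24e-28. A locus at the start of chromosome 24, from 1101 to 3100, reached 5.05 pp with a q of 2.78e-25 in the authors' deposited table, and 10 of its 12 tiles were positive. On chromosome 14 the 4 tiles from 78430101 to 78430900 ran from 2.35 to 5.01 pp in the authors' deposited table. These 3 loci held all 7 positive tiles that passed 5 pp at a q under 0.05. The remaining loci among the 10 with the largest positive values lay on chromosomes 13, 25, 24, 16, 6 and 9 and reached between 1.94 and 4.71 pp in the authors' deposited table. The one on chromosome 9, from 32279401 to 32280000, did not pass, with a q of 0.134 in the authors' deposited table.

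Far intergenic tiles were concentrated at the low end of chromosome coordinates. The rule used this property on chromosome 1 alone, where tiles below 0.7 Mb were left out. In the first Mb of a chromosome lay 440 of the 682 tiles (64.5%), against 50.2% of the 789 distal intergenic tiles up to 50000 bp from a feature and 18.1% of the 3339 autosomal tiles outside intergenic positions. These shares leave out the 5 windows, and the cut at 1 Mb was chosen after the positions were seen. It falls in a gap between tiles starting at 726201 and 2715201. The 440 tiles formed 34 loci on 11 chromosomes. Chromosome 13 held 145 of them, chromosome 16 held 138, chromosome 18 held 57 and chromosome 15 held 46, while 7 other chromosomes held between 1 and 14 each.

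All 18 counted tiles lay outside this first Mb. There, 18 of 242 tiles (7.44%) were counted, against 0 of 440 in the first Mb. Outside it, 6 of 393 nearer intergenic tiles (1.53%) and 20 of 2734 tiles outside intergenic positions (0.732%) were also counted. As loci with a counted tile, the 3 classes had 6 of 53, 3 of 70 and 8 of 799. For far intergenic tiles past 5 pp at a q under 0.05, the counts were 99 of 242 (40.9%) outside the first Mb and 19 of 440 (4.32%) within it. Overlap weighs less when loci are counted, and 22 of the 53 loci outside the first Mb held such a tile, as did 8 of the 34 within it. The median size was 3.88 pp outside and 1.88 within the first Mb. The implied error had a median of 0.812 pp outside and 0.638 pp within the first Mb. Within it, 339 of 440 tiles (77.0%) had a q under 0.05. The shares there were 79.5% for nearer intergenic tiles and 82.8% for tiles outside intergenic positions.

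Outside the first Mb, the share of tiles past 5 pp at a q under 0.05 was 40.9% for far intergenic tiles, 23.7% for nearer intergenic tiles and 5.67% for tiles outside intergenic positions. As loci, these were 22 of 53, 17 of 70 and 48 of 799. Within the first Mb, the tile shares were 4.32%, 2.27% and 14.7%, and as loci 8 of 34, 4 of 24 and 13 of 44. No tile of the other 2 classes was counted within the first Mb either, where they had 396 and 605 tiles. Chromosome 1 below 0.7 Mb, left out by the rule, is not in these counts. Median implied errors outside the first Mb also differed between the classes, at 0.812, 0.666 and 0.271 pp. None of these differences between classes was tested, because tiles and loci of the same 12 samples are not replicates, and the part of the implied error in them was not tested.

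**Figure D3:**
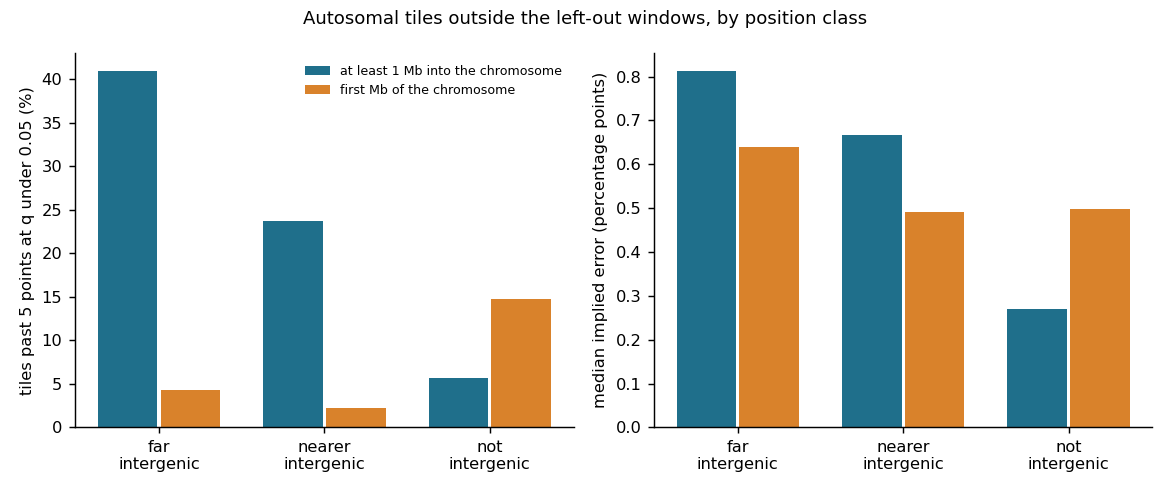
Autosomal tiles outside the 5 left-out windows in 3 position classes, split by whether they lie in the first Mb of a chromosome. The left bars give the percentage of tiles with a difference of at least 5 pp at a q under 0.05, which is 40.9% for far intergenic tiles outside the first Mb, and the right bars give the median implied error in pp.

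Of the 440 tiles in the first Mb, 365 came from 4 dense blocks, where a block joins tiles with gaps of at most 50000 bp. On chromosome 16 the block from 22201 to 134800 held 133 tiles in 10 loci, 124 of them negative, with a median of -1.86 pp. Its first locus, of 8 tiles, was the exception, at 0.589 to 2.61 pp in the authors' deposited table. All 9 other loci had a negative median, and the deepest tile stood at -7.24 pp in the authors' deposited table. That tile belonged to the locus from 73601 to 78000, which held 33 tiles, 32 of them negative, with a median of -3.34 pp. The block on chromosome 18, from 3301 to 52100, held 57 tiles, 53 of them negative, with a median of -2.53 pp and a lowest value of -7.23. Its largest locus, from 3301 to 8600, held 32 tiles, 30 of them negative, between -6.51 and 0.364 pp in the authors' deposited table. On chromosome 15, all 46 tiles from 33301 to 39700 were negative and had a q under 0.05, between -4.55 and -0.944 pp in the authors' deposited table. The nearest genes of these last 2 blocks were olfactory receptor genes, more than 200000 bp away, and are uncertain as members of a multicopy family.

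The block on chromosome 13, from 324801 to 346600, did not hold to a single sign. Of its 129 tiles, 47 were negative, and the median was 0.425 pp. Among its 101 tiles with a q under 0.05, 63 were positive and 38 negative, and they fell into 8 successive runs of a single sign within 21.8 kb. The blocks of chromosomes 16, 18 and 15 had 2, 1 and 1 such runs over 112.6, 48.8 and 6.4 kb. By locus along the block, the medians were 5.55, 0.387, 0.611 and -1.04 pp. The third of these loci, from 332001 to 341500, was the longest of all and held 72 tiles. Its highest tile, from 336201 to 336700, stood at 4.71 pp (q = 1.49e-42) in the authors' deposited table. The smallest q of a positive far intergenic tile, 2.25e-47, was also in this locus, at 4.17 pp in the authors' deposited table. Another block of chromosome 13, from 11501 to 60700, held 16 tiles, all negative, between -3.83 and -2.03 pp in the authors' deposited table.

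**Figure D4:**
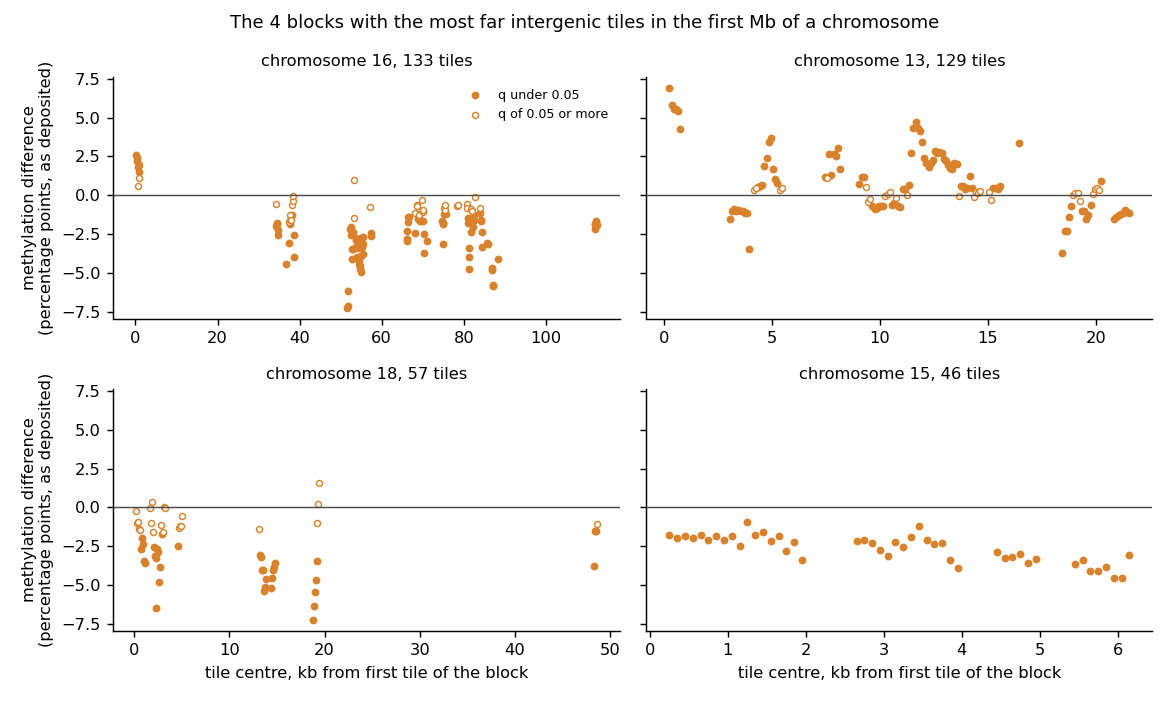
Methylation difference in pp of each tile in the 4 blocks with the most far intergenic tiles in the first Mb of a chromosome, against the tile's centre in kb from the first tile of the block. Filled points have a q under 0.05. Values on chromosomes 18 and 15 stay mostly below 0, while the 129 tiles of chromosome 13 alternate in sign.

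Distance from annotation ran from just over 50000 to 830089 bp, with a median of 96334 bp. Outside the first Mb, 11 of 105 tiles were counted at distances up to 100000 bp, 0 of 30 between 100000 and 200000 bp, 3 of 84 between 200000 and 400000 bp and 4 of 23 beyond. As loci with a counted tile, these were 4 of 21, 0 of 11, 1 of 15 and 1 of 6. The median size over these 4 ranges was 5.01, 3.71, 2.17 and 2.68 pp, so neither measure rose steadily with distance. The counted tiles beyond 400000 bp were the 4 of the chromosome 16 locus. The 2 loci farthest from annotation, on chromosome 20 from 43581901 to 43582600 and on chromosome 1 from 27412001 to 27412700, had small negative differences between -1.07 and -0.593 pp in the authors' deposited table. Both held 3 tiles, all with a q under 0.05. The next farthest after the chromosome 16 locus were a pair of tiles on chromosome 24, at 2.68 and 2.74 pp, and 5 tiles on chromosome 8 between -1.76 and 0.705 pp in the authors' deposited table. None of these 5 tiles had a q under 0.05. At the inner edge, the 5 loci just beyond 50000 bp had medians of -1.87, -1.04, -5.25, -4.35 and 5.55 pp. The 5 loci just short of it had medians of -5.10, -1.87, -2.01, 0.62 and -0.86, and some continue loci on the other side of the limit.

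**Figure D5:**
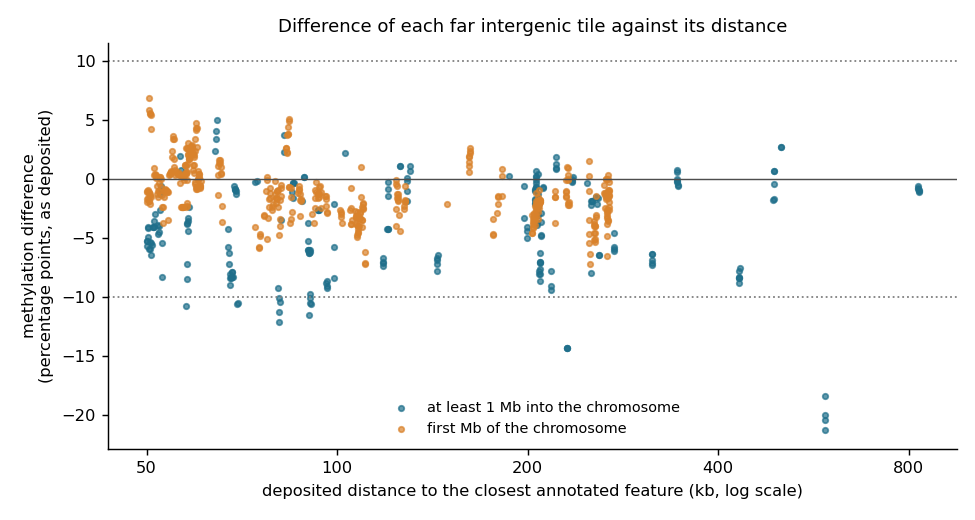
Methylation difference in pp of each of the 682 far intergenic tiles against its deposited distance to the closest annotated feature in kb (log scale), coloured by whether the tile lies in the first Mb of its chromosome. The 4 lowest tiles are the chromosome 16 locus, and the tiles beyond 800 kb lie close to 0.

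By closest feature, 243 tiles had a CpG island, 254 an exon, 167 coding sequence, 13 a 5′ UTR and 5 an intron. The share of negative tiles was 88.1% for CpG islands, 94.6% for coding sequence and 55.9% for exons, and the exon group includes the 129 tiles of the mixed block on chromosome 13. Dense blocks weigh less by locus, where the median was negative in 26 of 32, 14 of 14 and 26 of 35 loci. A gene ID accompanied 196 tiles and named 21 genes, 16 of them with a description. RefSeq on ARS-UCD2.0 holds 14 of the 16 by symbol, all on the same chromosome.

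Of 8 gene lists, 6 had a member among the nearest genes, and distances of this size do not tie a tile to a gene. Glycosyltransferases were represented by MGAT4C, with 4 of 5 tiles counted, and Wnt signalling by CXXC4, with 1 of 4. No tile was counted for the other lists. Developmental transcription factors were represented by TBX5, which directs heart and forelimb formation. The 3 tiles near it ran from -1.47 to -0.228 pp in the authors' deposited table, and 1 had a q under 0.05. Ion channels had KCNK9, a potassium leak channel that is imprinted in mouse and human, with a single tile on chromosome 14 at -3.50 pp (q = 0.000255) in the authors' deposited table. The ubiquitin pathway had UBE2D1, a ubiquitin-conjugating enzyme, with 2 tiles at -3.39 and -3.73 pp in the authors' deposited table. Multicopy families had 4 genes, OR4P4-like, OR5L1, OR5M9 and TAS2R1, whose 144 tiles were negative in 136 cases with a median of -2.41 pp. The lists of adhesion and synapse genes and of non-coding RNA had 0 genes here.

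The remaining named genes had small values. TYRP1, an enzyme of melanin synthesis, was nearest to 2 tiles at 0.683 and 1.08 pp in the authors' deposited table, both with a q under 0.05. The tiles nearest to CCL1, a chemokine, reached 1.10 pp with a q of 0.123 in the authors' deposited table. SLCO4C1, an organic anion transporter, had a single tile at -1.86 pp (q = 0.0970) in the authors' deposited table. Those nearest to CCDC68 and to TRHDE, which degrades thyrotropin-releasing hormone, reached 0.181 and -0.204 pp in the authors' deposited table and did not pass either.

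Far intergenic tiles inside the 5 left-out windows, 321 in number, were counted in 46 cases (14.3%), with a median size of 5.51 pp. On chromosome X, single in males, 3 of 96 far intergenic tiles were counted (3.1%), all in 1 of 17 loci. The share of counted tiles over all listed tiles was 2.78%.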

How the data were processed

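Sperm DNA from 12 samples was profiled by enzymatic methylation sequencing. Trimmomatic, Bismark and methylKit, with the builds ARS-UCD1.2 and bosTau9, are listed without settings per the submitters' processing notes. Each deposited tile has a p-value and a q-value of the authors' comparison and a signed difference in methylation, a score read as percentage points per the file headers and the values, and the other columns give positions and distance in bp. How the authors chose which tiles to list is not given in the sources used. No column belongs to a single sample, so no test between the groups was run, no spread between bulls could be computed and depth is unknown.

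The deposited distance runs from the start of a tile to the nearer edge of its closest feature in all 7290 tiles. Gaps were computed between edges. Tiles with at most 1000 bp between them were joined into loci, and counted tiles of a single sign likewise into regions. The deposited q lay below the deposited p in 414 of the 682 far intergenic tiles. Every region of counted tiles is described, and the text also covers, by name or by value, the 10 loci with the largest negative and the 10 with the largest positive values, the 5 with the most tiles, the 5 farthest and the 5 on either side of the distance limit, the smallest q of each sign, and nearest genes in the lists. The tiles, lists and rules were chosen with earlier results of these data known. Symbols were assigned by hand from the table's gene descriptions. Alternatives are given in the closing section. Joining and counting were tested on simulated data. Tables were handled with pandas 2.3.3 and NumPy 2.4.6 in Python 3.11.15, normal deviates came from SciPy 1.17.1, and matplotlib 3.10.9 drew the figures.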

Additional observations from a re-analysis of the deposited data

How the results depend on the processing

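The count of 18 far intergenic tiles in 6 regions moved with the minimum difference, to 118 tiles in 31 regions at 5 percentage points, 4 tiles in 1 region at 15 and 3 tiles in 1 region at 20. Beyond 100000 bp and beyond 200000 bp it was 7 tiles in 2 regions, with 87.5% and 89.3% of tiles negative, against 77.4%. With the 5 left-out windows kept in, 64 tiles in 14 regions were counted, 81.8% of tiles were negative and the median size was 3.08 percentage points, against 2.18. With 1 tile per locus, 5 of 87 tiles were counted and 81.6% were negative. Gene features alone gave 71.5% negative. Without the first Mb of each chromosome, an alternative chosen after seeing the data, 86.4% were negative and the median size was 3.88 percentage points. The cause of these shifts was not tested. The count of 18 was the same at a q under 0.01 and with Benjamini-Hochberg adjustment of the deposited p over all listed tiles. At any size, 475 tiles passed that adjustment, against 533 by the deposited q. Over all 7290 listed tiles these counts were 4556 and 5236. Of the 3 blocks tied for the most counted tiles, the one near MGAT4C was left out as the alternative, and 14 tiles in 5 regions remained. No paired analysis was possible because no column belongs to a single sample and the groups share no replicate numbers. For the same reason no sample could be left out.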
